A study of Homo sapiens with 12 samples.

Results

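GPNMB (glycoprotein nonmetastatic melanoma protein B) was followed in HK2 cells, a human cell line made from the proximal tubule of the kidney, with and without knockdown of the tumor suppressor FLCN. It was selected as 1 gene of 58288 gene IDs in the deposited table, of which 13959 had enough reads to be tested, and it was chosen by its rise after short-term FLCN knockdown, a value already known from these counts. Its own levels and changes are therefore given as a description and carry no test. RNA was sequenced from 4 groups of 3 libraries. Short-term cells, nontarget or with FLCN knockdown, had been kept for fewer than 30 passages, and long-term cells of both kinds for more than 120, as the labels have it (the study's text gives a smaller number for the long-term cells). All groups carried a short hairpin RNA (shRNA), directed against FLCN in the knockdown cells and against no human gene in the nontarget cells. The lines were expanded from selected clones, the sources used here do not tie a library to a clone, and so the hairpin and the clone that carries it cannot be told apart. The labels call the libraries of a group biological replicates without saying whether they came from separate cultures, so p-values measure the spread between these libraries only.

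GPNMB is a glycoprotein of lysosomal, endosomal and melanosomal membranes that also reaches the cell surface, where the protease ADAM10 can shed its outer part. Its gene is a known target of the MiT/TFE transcription factors (MITF, TFEB, TFE3 and TFEC). FLCN, with its partners FNIP1 and FNIP2, acts on the Rag GTPases RRAGC and RRAGD, which lets mTORC1 phosphorylate TFEB and TFE3 and so keeps both factors out of the nucleus. In kidney pathology, GPNMB protein is used as a marker of tumors with an active MiT/TFE factor, among them tumors with TFE3 rearrangement or FLCN loss.

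MiT/TFE factors bind short E-box motifs, and the promoter of GPNMB is shown because it holds the form known as the M-box. The window, taken from RefSeq, covers 250 bases before and 50 bases after the RefSeq start of GPNMB, on GRCh38.p14 at chr7:23246525-23246824, plus strand. Capitals mark the M-box TCACATGA and the shorter CACATG.

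GPNMB: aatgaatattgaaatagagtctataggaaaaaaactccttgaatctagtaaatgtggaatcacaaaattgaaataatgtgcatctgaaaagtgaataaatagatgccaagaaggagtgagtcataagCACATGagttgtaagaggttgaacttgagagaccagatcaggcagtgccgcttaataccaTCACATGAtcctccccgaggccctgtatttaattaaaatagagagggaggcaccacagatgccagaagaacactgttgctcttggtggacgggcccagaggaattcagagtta

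TCACATGA lay 63 to 56 bases before the start, at chr7:23246712-23246719, and overlaps a CACATG 62 to 57 bases before it. A further CACATG lay 123 to 118 bases before the start. Read on both strands (TCATGTGA is the reverse of TCACATGA), TCACATGA was present in 1.00% of the 35116 RefSeq promoter windows of this length and CACATG in 11.1%. The E-box CACGTG, present in 7.26% of windows, and the longer GTCACGTG of lysosomal genes, present in 2.40%, had no match in the window of GPNMB. Starts differ between annotations. In GENCODE release 29, the 4 protein-coding transcripts of GPNMB begin at 23246563, 23246697, 23246709 and 23246746, so the M-box lies upstream of the start of the last of them and downstream of the starts of the other 3.

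For comparison, 33 genes of the pathway and target lists described below had a RefSeq window. GTCACGTG was found in 15 of them (45.5%, against 2.93% of all 27305 genes with a window) and CACGTG in 17 (51.5%, against 8.77%). TCACATGA was found in 2, FNIP2 and TPP1 (6.06%, against 1.24% of all genes). The target genes were listed as MiT/TFE targets, for which such motifs are known, so these shares describe the list. A window of FNIP2, the folliculin partner, and a window of PPARGC1A, the coactivator of mitochondrial genes, are printed because both genes changed below and show both forms of the motif. Each gene has another RefSeq window, which held none of the 4 motifs in FNIP2 and, of the 4, CACATG alone in PPARGC1A. The capitals mark TCACATGA in FNIP2 (chr4:158805589-158805888, plus strand, 143 to 136 bases before the start) and CACGTGAC, the reverse of GTCACGTG, in PPARGC1A (chr4:24472856-24473155, minus strand, 123 to 116 bases before the start). In GENCODE release 29, which served for lengths and positions here, PPARGC1A spans chr4:23755041-23904089. The printed window of PPARGC1A thus lies far upstream of that gene model, and the other window lies within it. FNIP2 spans chr4:158769138-158908049, so its printed window lies within the gene model. The FNIP2 window without a motif, at chr4:158768776-158769075, ends just before the start of the model.

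FNIP2: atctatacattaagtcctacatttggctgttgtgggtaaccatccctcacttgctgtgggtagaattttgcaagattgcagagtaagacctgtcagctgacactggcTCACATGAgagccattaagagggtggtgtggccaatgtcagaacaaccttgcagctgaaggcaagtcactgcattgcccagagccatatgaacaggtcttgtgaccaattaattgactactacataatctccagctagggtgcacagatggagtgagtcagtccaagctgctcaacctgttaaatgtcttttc

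PPARGC1A: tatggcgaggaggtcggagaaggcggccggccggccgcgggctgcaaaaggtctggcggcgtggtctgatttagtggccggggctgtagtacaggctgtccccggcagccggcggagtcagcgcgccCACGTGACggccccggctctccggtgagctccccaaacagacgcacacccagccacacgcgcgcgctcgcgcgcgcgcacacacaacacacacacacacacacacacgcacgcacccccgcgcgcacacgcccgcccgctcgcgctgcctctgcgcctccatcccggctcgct

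Levels are given in CPM, reads scaled to a common normalized library total, with the mean ± SD of 3 libraries. Totals ranged from 5825779 to 8991051 counts per library, and 1 model of all 12 libraries was fitted over the 13959 genes tested. A gene is said to have risen or fallen where its adjusted p was below 0.05 (edgeR's quasi-likelihood test, Benjamini-Hochberg over all genes tested).

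GPNMB was high after short-term FLCN knockdown and low elsewhere. In short-term nontarget cells it had 46, 34 and 45 reads in replicates 1 to 3, or 6.29, 5.16 and 7.07 CPM. After short-term knockdown it had 420, 472 and 181 reads, or 53.1, 69.0 and 32.0 CPM. In long-term nontarget cells it had 40, 32 and 49 reads, or 5.36, 4.96 and 6.34 CPM. After long-term knockdown it had 93, 85 and 55 reads, or 10.7, 12.5 and 9.33 CPM. Every short-term knockdown library lay above every long-term knockdown library, and those lay above all 6 nontarget libraries. The libraries of both nontarget groups overlapped.

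**Figure D1:**
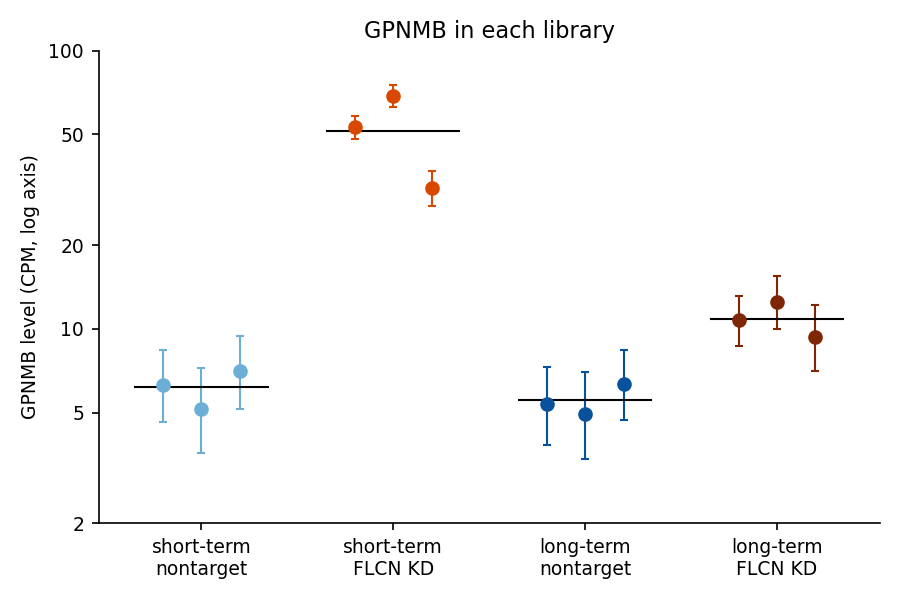
GPNMB level in CPM, on a log axis, in each of the 12 libraries by group. Points are libraries, bars are 95% exact Poisson intervals of the read count, which cover counting error only, and horizontal lines are group means. The 3 short-term knockdown libraries sit between 32.0 and 69.0 CPM, the 3 long-term knockdown libraries between 9.33 and 12.5 CPM, and the nontarget libraries at 7.07 CPM or below.

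Ordered by their means, the groups had 5.55 ± 0.712 CPM (SD, n = 3) in long-term nontarget, 6.17 ± 0.958 in short-term nontarget, 10.8 ± 1.57 in long-term knockdown and 51.4 ± 18.6 in short-term knockdown cells. The nontarget groups, next to each other in this order, differed by less than their spread. Per length of all annotated exons of a gene, joined over its transcripts, the order was the same. The values were 3.31 ± 0.420, 3.51 ± 0.569, 5.84 ± 1.02 and 28.3 ± 10.6 TPM.

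Among all genes tested, GPNMB was a gene of low rank in nontarget cells. By mean CPM it ranked 10494 of 13959 in short-term nontarget cells, above 24.8% of the genes, and 10640 in long-term nontarget cells, above 23.8%. After short-term knockdown it ranked 4128, above 70.4%, and after long-term knockdown 9080, above 35.0%. By TPM its ranks were 11589, 11706, 4864 and 10027 in the same order of groups. The median gene tested had 22.1 to 22.7 CPM depending on the group, so GPNMB was above the median gene only in short-term knockdown cells.

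The spread of GPNMB between replicates was of the size of counting error in 3 of the 4 groups. Its coefficient of variation was 15.5% in short-term nontarget cells, where counting error alone gives 15.5%. In long-term nontarget cells it was 12.8%, against 15.8% for counting, and in long-term knockdown cells 14.5%, against 11.5%. After short-term knockdown it was 36.1%, against 5.40% for counting. In that group the highest library, replicate 2, had 2.15 times the level of the lowest, replicate 3. Across all groups the fitted biological coefficient of variation of GPNMB was 18.3%, compared with 12.96% on the fitted trend for genes of its abundance.

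The log2 fold change of GPNMB after short-term knockdown was 3.01 (SE 0.242, an 8.04-fold rise), and 13 of the 13959 genes tested had a larger one. The change after long-term knockdown was 0.93 (SE 0.267, 1.90-fold), with 522 genes above it. Without knockdown, long-term cells differed from short-term cells by −0.14 (SE 0.289). With knockdown, long-term cells had 4.65-fold less GPNMB than short-term cells (log2 change −2.22, SE 0.224). The long-term effect was smaller than the short-term effect (difference of log2 fold changes −2.08, SE 0.366), which is rank 295 of the 13959 genes from the most negative. Comparisons that use the same group share its libraries, so these 5 values are not independent of each other. Leaving out each library in turn, the short-term value ranged from 2.74 (without knockdown replicate 2) to 3.25 (without knockdown replicate 3) and the long-term value from 0.82 to 1.03. GPNMB does not overlap another annotated gene.

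FLCN, the target of the shRNA, was lower in every knockdown library than in every nontarget library of the same passage range. It had 12.7, 16.7 and 16.5 CPM in short-term nontarget and 5.95, 6.58 and 5.66 CPM in short-term knockdown libraries, and fell by 59.1% (log2 change −1.29, SE 0.179, edgeR adjusted p = 1.12e-04). It had 9.92, 11.9 and 12.2 CPM in long-term nontarget and 6.70, 6.31 and 7.97 CPM in long-term knockdown libraries, and fell by 37.6% (log2 change −0.68, SE 0.178, edgeR adjusted p = 0.00611). The long-term fall minus the short-term one was 0.61 on the log2 scale (SE 0.254) and did not pass (edgeR adjusted p = 0.118). FLCN ranged from 5.66 to 7.97 CPM over the 6 knockdown libraries, and GPNMB over the same libraries from 9.33 to 69.0 CPM.

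Of the 11 genes of the FLCN, Rag and MiT/TFE list, 10 were tested. After short-term knockdown RRAGD and FNIP2 rose and FLCN fell, so 2 of 10 rose and 1 fell, where 5.62% of all genes tested rose and 4.71% fell. RRAGD, a Rag GTPase and itself a known TFE3 target, had 13.7, 13.1 and 11.5 CPM in nontarget and 31.4, 30.0 and 21.8 CPM in knockdown libraries (log2 change 1.11, SE 0.175, edgeR adjusted p = 4.02e-04). FNIP2 had 22.01, 23.8 and 20.7 CPM in nontarget and 44.8, 54.5 and 41.9 CPM in knockdown libraries (log2 change 1.08, SE 0.139, edgeR adjusted p = 7.44e-05). As for GPNMB, replicate 3 had the least of both genes among the knockdown libraries.

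After long-term knockdown none of the 10 rose and 4 fell (FLCN, RRAGD, FNIP2 and MITF), where 13.7% of all genes tested rose and 15.8% fell. FLCN is the target of the shRNA, so its fall was set by the design in the counts at both times. RRAGD had 8.84, 8.98 and 7.63 CPM in long-term nontarget and 4.04, 5.43 and 6.61 CPM in knockdown libraries, and its log2 fold change was −0.66 (SE 0.214, edgeR adjusted p = 0.0215). Its fall missed the threshold without long-term knockdown replicate 1 or either of nontarget replicates 1 and 2 (edgeR adjusted p up to 0.130). FNIP2 had 24.4, 27.7 and 22.1 CPM in nontarget and 11.9, 12.03 and 9.67 CPM in knockdown libraries (log2 change −1.11, SE 0.152, edgeR adjusted p = 2.06e-05). GPNMB was still higher than in nontarget cells at this time, while RRAGD and FNIP2 were lower. The interaction was −1.77 (SE 0.276, edgeR adjusted p = 1.88e-04) for RRAGD and −2.19 (SE 0.206, edgeR adjusted p = 1.10e-06) for FNIP2.

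The RNA of the factors themselves moved little. TFE3 had 101 ± 4.92 CPM in short-term nontarget and 109 ± 2.55 CPM in short-term knockdown cells (log2 change 0.11, edgeR adjusted p = 0.608), and 96.0 ± 7.68 and 88.7 ± 12.03 CPM in the long-term groups (−0.12, edgeR adjusted p = 0.462). TFEB, at 3.66 to 5.94 CPM on average, had log2 fold changes of −0.17 and 0.00 (edgeR adjusted p = 0.805 and 0.999). MITF had 80.5 ± 2.96 and 83.6 ± 7.49 CPM short-term (0.05, edgeR adjusted p = 0.831) and fell after long-term knockdown from 87.5 ± 8.89 to 66.0 ± 5.49 CPM (−0.41, SE 0.108, edgeR adjusted p = 0.00803). TFEC was not tested, with at most 1 read in a group. FNIP1, RRAGA, RRAGB and RRAGC did not pass in either comparison, with log2 fold changes of −0.39 to 0.04. FLCN, FNIP2 and MITF overlap other annotated genes, among them MPRIP for FLCN, and position alone cannot assign a read that both genes cover.

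**Figure D2:**
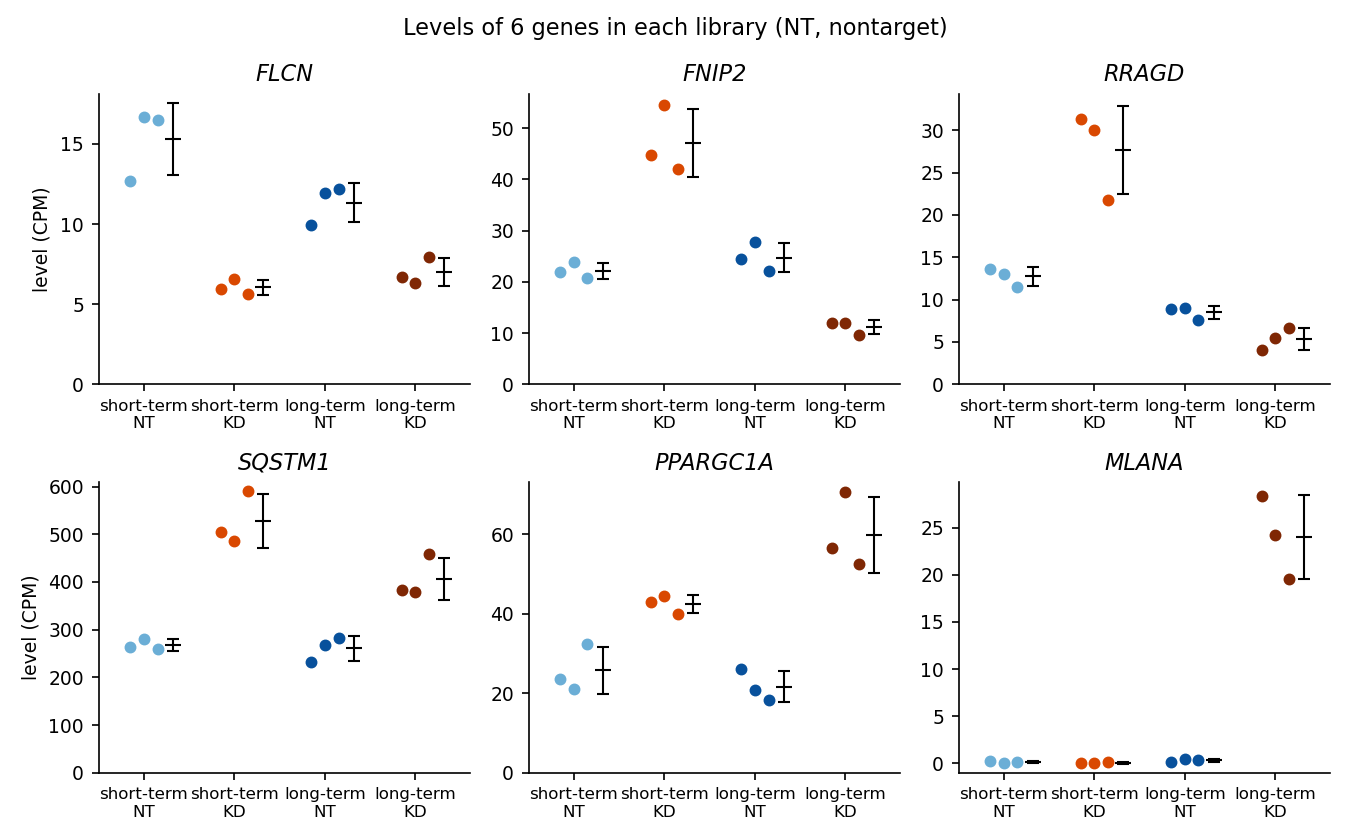
Level in CPM of FLCN, FNIP2, RRAGD, SQSTM1, PPARGC1A and MLANA in each of the 12 libraries by group (NT, nontarget; KD, FLCN knockdown). Points are libraries, and black marks are the mean ± SD of 3 libraries. FNIP2 and RRAGD are above nontarget cells after short-term and below them after long-term knockdown, and MLANA is at 19.5 to 28.3 CPM after long-term knockdown and at 0.46 CPM or below elsewhere.

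Most of the other MiT/TFE targets did not pass after short-term knockdown. The list held 42 lysosomal, autophagy and regulatory genes known as targets of TFEB or TFE3, of which 41 were tested. After short-term knockdown 5 rose and 1 fell (12.2% and 2.44%, against 5.62% and 4.71% of all genes), and the median log2 fold change of the 41 was 0.01, against 0.00 for all genes. SQSTM1, the autophagy receptor p62, rose from 268 ± 12.1 to 527 ± 56.4 CPM (log2 change 0.98, SE 0.109, edgeR adjusted p = 1.72e-05). PSAP, the precursor of the saposins, rose from 1444 ± 63.1 to 2294 ± 369 CPM (0.67, edgeR adjusted p = 0.00287), and ATP6V0E1, a subunit of the lysosomal proton pump, from 188 ± 2.60 to 282 ± 34.6 CPM (0.58, edgeR adjusted p = 0.00208). PPARGC1A rose by 0.72 (edgeR adjusted p = 0.00852) and the protease CTSD by 0.55 (edgeR adjusted p = 0.0222). GAA, the lysosomal alpha-glucosidase, fell by 0.51 on the log2 scale (edgeR adjusted p = 0.0149). The calls of PPARGC1A, CTSD and GAA were lost without nontarget replicate 1, which left 3 genes of the list. PPARGC1A was also lost without nontarget replicate 2 (edgeR adjusted p = 0.0610). CTSD was also lost without nontarget replicate 3 or knockdown replicate 3, with an edgeR adjusted p of up to 0.106 over its 3 fits. GAA was also lost without knockdown replicate 1, with an edgeR adjusted p of up to 0.0875 over both fits.

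After long-term knockdown 7 of the 41 rose and 9 fell (17.1% and 21.95%, against 13.7% and 15.8% of all genes), and their median log2 fold change was −0.02. The largest rises were PPARGC1A, from 21.7 ± 3.96 to 59.7 ± 9.47 CPM (log2 change 1.45, SE 0.166, edgeR adjusted p = 3.33e-06), and GAA, from 27.9 ± 2.53 to 57.7 ± 7.12 CPM (1.04, SE 0.124, edgeR adjusted p = 5.23e-06). SQSTM1 (0.64, edgeR adjusted p = 2.36e-04) and ATP6V0E1 (0.60, edgeR adjusted p = 4.56e-04) rose at both times. GABARAP, an autophagosome protein, rose by 0.66 (edgeR adjusted p = 0.0192), a call lost without long-term knockdown replicate 1 or nontarget replicate 2 (edgeR adjusted p up to 0.0968) and with DESeq2 (adjusted p = 0.0537). The sialidase NEU1 (−0.81, edgeR adjusted p = 2.18e-05) fell, as did ATP6V1C1 (−0.77, edgeR adjusted p = 5.08e-05), ATP6V1D (−0.49, edgeR adjusted p = 0.00527) and ATP6AP1 (−0.48, edgeR adjusted p = 0.00380) of the proton pump and MAP1LC3B (−0.54, edgeR adjusted p = 1.33e-04), which codes for an LC3 protein of autophagosomes. Of the 12 tested genes for lysosomal membrane and acidification, 1 rose and 5 fell. PSAP missed the threshold (0.28, edgeR adjusted p = 0.122) and passed it with the replicate number as a block (edgeR adjusted p = 0.0192).

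GPNMB had a larger short-term log2 fold change than any of the 41 tested targets, whose values ranged from −0.52 to 0.98. It was chosen for its short-term rise and the targets were not, so its place above them restates the choice. The interaction was higher for 3 of the 41 and lower for 4, where 4.98% and 8.43% of all genes were. GAA (1.55, edgeR adjusted p = 1.05e-05) was among the former and NEU1 (−0.76, edgeR adjusted p = 0.00253) among the latter. Several of these genes, SQSTM1, CTSD and MAP1LC3B among them, overlap other annotated genes.

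**Figure D3:**
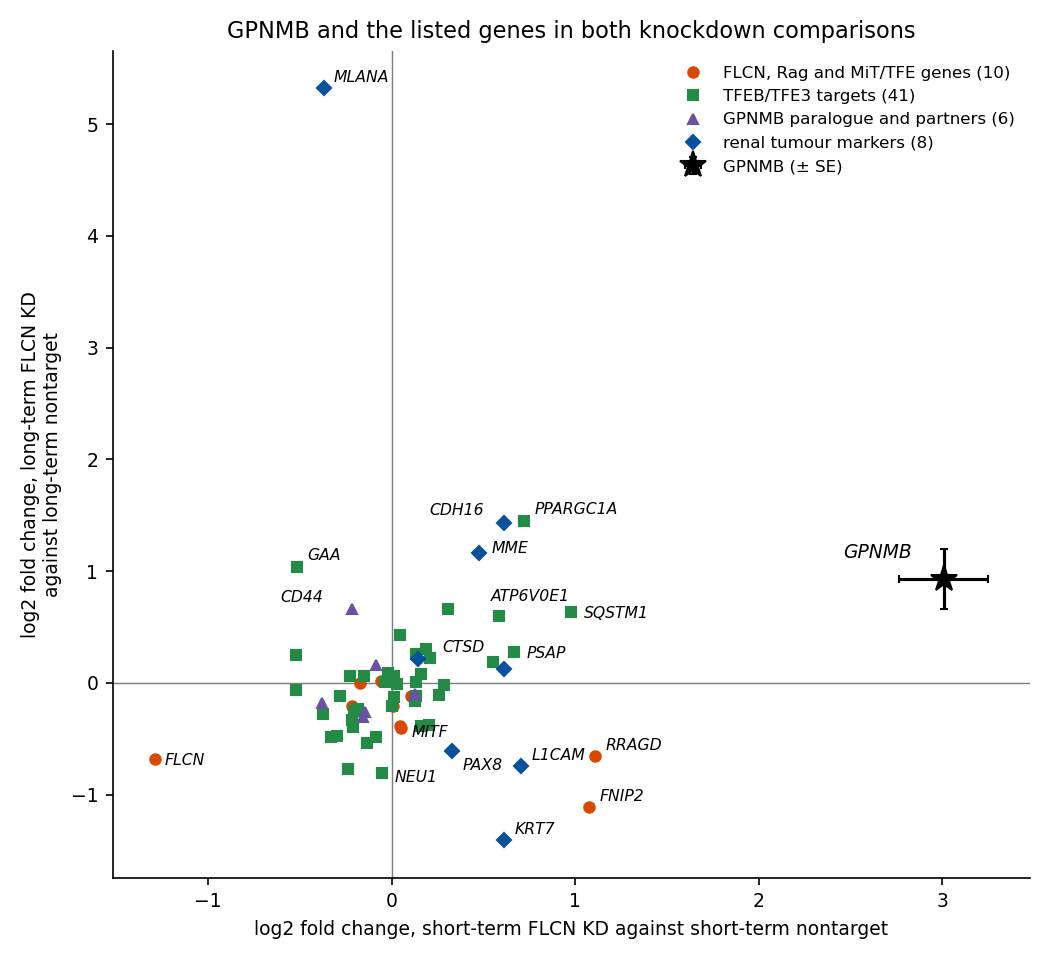
Log2 fold change after short-term knockdown (horizontal axis) and after long-term knockdown (vertical axis) of GPNMB, with its SE, and of the tested genes of 4 lists, 1 symbol per list. GPNMB is farthest to the right, at 3.01 and 0.93. RRAGD lies at 1.11 and −0.66 and FNIP2 at 1.08 and −1.11, and MLANA lies at the top, at 5.32 long-term.

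Of 6 genes whose products resemble or meet GPNMB, all tested, 0 passed after short-term knockdown with edgeR. Of all genes tested 5.62% rose and 4.71% fell, so 0 of 6 lies near these shares. With DESeq2 0 of the 6 passed, and 0 had an unadjusted edgeR p below 0.05. PMEL, the melanosome protein that is the closest relative of GPNMB, had 6.78 ± 0.972, 5.17 ± 1.19, 6.58 ± 1.45 and 5.81 ± 1.59 CPM in short-term nontarget, short-term knockdown, long-term nontarget and long-term knockdown cells. It passed in neither comparison (log2 changes −0.38 and −0.18, edgeR adjusted p = 0.394 and 0.626). Per length, PMEL was above GPNMB in nontarget cells (5.97 ± 0.890 against 3.51 ± 0.569 TPM short-term) and below it after short-term knockdown (4.42 ± 1.12 against 28.3 ± 10.6 TPM).

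CD44, a surface receptor for hyaluronan that binds GPNMB, rose after long-term knockdown from 216 ± 16.6 to 342 ± 21.96 CPM (0.66, edgeR adjusted p = 1.42e-04), after a short-term value of −0.22 (edgeR adjusted p = 0.236). The proteoglycan SDC4 (−0.31, edgeR adjusted p = 0.0126) and the sheddase ADAM10 (−0.27, edgeR adjusted p = 0.0364) fell long-term. The call of SDC4 was lost without long-term knockdown replicate 2 (edgeR adjusted p = 0.0614), and that of ADAM10 without knockdown replicates 2 or 3 or nontarget replicate 1 (up to 0.146), with no filter and with only the groups compared in the fit. The integrin subunits ITGA5 and ITGB1 did not pass, with log2 fold changes of −0.10 to 0.16 in both comparisons. Of the 6 genes, 1 thus rose and 2 fell long-term (16.7% and 33.3%, against 13.7% and 15.8% of all genes), and without long-term knockdown replicate 2 only 1 of these 3 calls was left.

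Other markers of renal tumors with an active MiT/TFE factor were near 0 in the short-term libraries. CTSK (cathepsin K), which such tumors often contain, had 1 to 4 reads per group over 3 libraries, and TRIM63, a muscle ubiquitin ligase used in the same way, had 2 reads at most. MLANA (melan-A), a melanocyte protein that such tumors can carry, had 3 reads without and 1 with short-term knockdown and 7 in long-term nontarget cells. After long-term knockdown it had 245, 165 and 115 reads, or 28.3, 24.2 and 19.5 CPM, against 0.329 ± 0.173 CPM in long-term nontarget cells (log2 change 5.32, SE 0.358). MLANA passed the filter on low counts only through this group, where it is high, so its values are given with no test. GPNMB was thus highest in the short-term knockdown group and MLANA in the long-term knockdown group. MLANA overlaps KIAA2026 on the genome.

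Of the 18 renal tumor markers on the list, 8 were tested, and all of these but MLANA were expressed in nontarget cells too. The short-term share below is of all 8, MLANA included, though MLANA passed the filter only through the long-term knockdown group. After short-term knockdown 3 rose (37.5%, against 5.62% of all genes) and none fell (against 4.71%): the adhesion molecule L1CAM (log2 change 0.70, edgeR adjusted p = 0.0226), the membrane peptidase MME (0.48, edgeR adjusted p = 0.0107) and the kidney transcription factor PAX8 (0.33, edgeR adjusted p = 0.0490). These calls were not stable. PAX8 missed the threshold without any 1 of the 6 libraries (edgeR adjusted p up to 0.196), L1CAM without nontarget replicate 1 or 2 or knockdown replicate 3 (up to 0.0875) and MME without knockdown replicate 2 (0.0702), so that 1 of the 3 was left without nontarget replicate 1 or 2 or knockdown replicate 2 or 3.

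After long-term knockdown, leaving out MLANA, 2 of the tested markers rose and 3 fell, where 13.7% and 15.8% of all genes did. The kidney cadherin CDH16 (from 18.6 ± 4.93 to 50.8 ± 3.61 CPM, log2 change 1.43, edgeR adjusted p = 1.10e-05) and MME (1.17, edgeR adjusted p = 6.38e-07) rose. The keratin KRT7 (from 14.0 ± 2.85 to 5.26 ± 3.39 CPM, −1.41, edgeR adjusted p = 0.00260), L1CAM (−0.75, edgeR adjusted p = 0.00656) and PAX8 (−0.61, edgeR adjusted p = 2.04e-04) fell. L1CAM and PAX8 thus moved up short-term and down long-term, with interactions of −1.45 (edgeR adjusted p = 0.00135) and −0.94 (edgeR adjusted p = 2.16e-04). PAX8 lies on chromosome 2, whose 932 tested genes had a median log2 fold change of 0.30 after short-term knockdown. All of the 8 but CDH16 overlap other annotated genes.

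GPNMB is also known from melanocytes, macrophages and osteoclasts, and most of the listed markers of these cells were below 1 CPM, with PMEL, MLANA, CD14, ACP5 and CALCR as exceptions. Of 6 melanocyte markers, TYR had 0 reads in all libraries, SOX10 1 read in long-term nontarget and 0 in the other groups, and DCT and TYRP1 at most 8 reads in a group, so that only PMEL and, after long-term knockdown, MLANA reached 1 CPM. Of 8 macrophage markers, 4 (PTPRC, CD163, TYROBP and AIF1) had 0 reads in all libraries, and their summed level was 0.607 to 1.10 CPM in short-term nontarget and 1.39 to 1.95 CPM in short-term knockdown libraries. CD14 reached 1 CPM in short-term knockdown cells alone. Of 5 osteoclast markers, only ACP5 and CALCR reached 1 CPM. ACP5 (tartrate-resistant acid phosphatase) rose after short-term knockdown from 23.4 ± 2.18 to 33.9 ± 3.61 CPM (log2 change 0.53, edgeR adjusted p = 0.0285, lost without nontarget replicate 2 or 3 or knockdown replicate 2, up to 0.116) and fell after long-term knockdown from 23.1 ± 1.43 to 12.2 ± 2.45 CPM (−0.92, edgeR adjusted p = 2.33e-04). CALCR, the calcitonin receptor, had 5.76 ± 1.00 and 9.25 ± 0.663 CPM short-term (0.67, edgeR adjusted p = 0.138) and fell from 2.10 ± 0.369 to 0.226 ± 0.392 CPM long-term (−2.31, edgeR adjusted p = 5.73e-04). The summed osteoclast markers were at 27.9 to 31.0 CPM in short-term nontarget, 40.1 to 47.2 in short-term knockdown, 23.9 to 27.0 in long-term nontarget and 9.48 to 14.2 in long-term knockdown libraries, and their part in the GPNMB values was not tested. In bulk RNA, fewer cells of a type and less RNA per cell cannot be told apart.

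Checked against the label of the line, the libraries held few reads of proximal tubule genes. Of 12 markers, LRP2, SLC5A12, SLC22A6, SLC22A8 and HNF4A had 0 reads in all libraries, and only GGT1 and SLC5A2 reached 1 CPM. Summed over the 12, the level was 47.6 to 60.6 CPM in short-term nontarget and 69.6 to 80.0 in short-term knockdown libraries, and 39.3 to 57.8 and 72.9 to 96.2 in the long-term groups. GGT1 (gamma-glutamyltransferase) rose after long-term knockdown (log2 change 0.84, edgeR adjusted p = 6.03e-04). Its short-term rise (0.51, edgeR adjusted p = 0.0483) missed the threshold without any 1 of the 6 libraries (up to 0.181). SLC5A2, a glucose carrier, did not pass (0.16 and 0.48, edgeR adjusted p = 0.667 and 0.0609), though with the replicate number as a block its long-term value did (edgeR adjusted p = 0.0214).

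GPNMB lies on chromosome 7 (GRCh38, 23235967 to 23275108, plus strand in GENCODE release 29), and most of the genes around it did not pass after short-term knockdown. Its nearest tested neighbors are NUPL2, a nuclear pore protein gene that ends 34956 bases before it, and MALSU1, a mitochondrial ribosome factor gene that begins 23631 bases after it. The only other annotated gene between these neighbors, AC005082.1, had 1 read in all 12 libraries. NUPL2 had 28.9 ± 5.01 CPM in short-term nontarget and 25.2 ± 4.76 CPM in short-term knockdown cells (log2 change −0.19, SE 0.161, edgeR adjusted p = 0.533). MALSU1 had 49.2 ± 0.680 and 53.7 ± 1.98 CPM (0.13, SE 0.103, edgeR adjusted p = 0.518).

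Of the 10 tested genes on either side, 20 in all, 2 rose and 1 fell after short-term knockdown (10.0% and 5.00%, against 5.62% and 4.71% of all genes), and their median log2 fold change was −0.08, with −0.03 for the 671 tested genes of chromosome 7. The RNA-binding protein gene IGF2BP3 rose (0.34, SE 0.097, edgeR adjusted p = 0.0327), a call lost without any 1 of the 6 libraries (up to 0.129), and CCDC126 fell from 6.57 ± 0.296 to 2.63 ± 0.654 CPM (−1.23, SE 0.239, edgeR adjusted p = 0.00156). The other rise was in IL6 (0.72, SE 0.183, edgeR adjusted p = 0.0150), an inflammatory cytokine gene outside the 5 nearest, named after its value was seen. IL6 overlaps STEAP1B, and IGF2BP3 overlaps MALSU1. Without nontarget replicate 1 or 2 or knockdown replicate 3, 1 of the 3 genes was left. KLHL7, FAM126A, SNHG26 and TOMM7 on the left and TRA2A and FAM221A on the right, within the 5 nearest on each side, did not pass, at −0.88 to 0.07.

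After long-term knockdown 4 of the 20 rose and 1 fell, where 13.7% and 15.8% of all genes did, with a median of 0.18. Over chromosome 7 the median was 0.24, and 200 genes rose and 46 fell of 671, while the median of all genes tested was 0.00. In nontarget cells, long-term against short-term, the median of chromosome 7 was −0.21 (9 genes higher, 79 lower) and that of the 20 neighbors −0.33. In knockdown cells both of these medians were 0.09 (87 genes of chromosome 7 higher, 62 lower). Over all genes tested the median was 0.01 in either comparison of passages. The long-term log2 fold change of GPNMB was 0.93. Among the 5 nearest on each side, TOMM7 (0.58, SE 0.133, edgeR adjusted p = 0.00272), of the mitochondrial import pore, and KLHL7 (0.47, SE 0.116, edgeR adjusted p = 0.00450), a ubiquitin ligase adaptor, rose. NUPL2 (0.17, edgeR adjusted p = 0.472) and MALSU1 (0.24, edgeR adjusted p = 0.0844) did not pass. The part of the shift of chromosome 7 in the value of GPNMB was not tested.

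The genes whose pattern over the 12 libraries was most like that of GPNMB were SYT13, KLF7, FMNL2, EPB41L3 and STC2. They had the highest Pearson r with GPNMB, on log2 CPM, among 10189 tested genes with a mean of at least 50 reads. The r was 0.969 for SYT13, a synaptotagmin, 0.958 for the transcription factor KLF7, 0.954 for the formin FMNL2, 0.954 for the membrane skeleton protein EPB41L3 and 0.952 for the secreted glycoprotein STC2. The 12 points form 4 groups whose libraries share their cells, so r is a description. By Spearman's rank correlation 6 genes, with a tie at the last place, were the most alike, and 3 of them were shared with these, KLF7, FMNL2 and EPB41L3 (rho 0.944 each). The rho was 0.860 for SYT13 and 0.790 for STC2.

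SYT13 had 9.02, 9.26 and 15.1 CPM in short-term nontarget and 90.6, 96.9 and 98.0 CPM in short-term knockdown libraries. It had 8.17, 7.90 and 7.89 CPM in long-term nontarget and 16.6, 15.3 and 17.6 CPM in long-term knockdown libraries. Its log2 fold changes were 3.07 and 1.02, side by side with 3.01 and 0.93 for GPNMB. The others had smaller short-term log2 fold changes, of 1.32 (EPB41L3), 0.96 (STC2), 0.89 (KLF7) and 0.60 (FMNL2). Long-term, the log2 fold changes were 0.55 for EPB41L3, 0.22 for KLF7, 0.22 for FMNL2 and 0.08 for STC2. These genes were picked for this pattern over all 12 libraries, so their values at both times are a description, with no test. KLF7 and FMNL2 lie on chromosome 2, which holds 6.55% of the genes compared. In SYT13 the 3 short-term knockdown libraries lay close together, unlike in GPNMB, where replicate 3 was low. SYT13, KLF7, FMNL2 and EPB41L3 overlap other annotated genes, and STC2 does not.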

How the data were processed

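RNA of 12 HK2 libraries in 4 groups of 3 was measured by RNA-seq. Per the study's methods, the authors made TruSeq RNA libraries, sequenced them on a MiSeq, trimmed with fastp, aligned with 2-pass STAR and deposited counts per gene from featureCounts. The labels give GRCh38. Versions, annotation and strand setting are not given in the sources used here. The deposited columns of normalized values, treated as a score, are the authors' counts divided by 1 factor per library (DESeq2 in SARTools; 99.9989% of values within 1 of that quotient) and served for this check only. The table of raw counts and the deposited per-library files differed in 0 values.

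GPNMB and all gene lists were chosen with earlier results of these data known. IDs were matched to GENCODE release 29 (55619 with the same version, 2406 with another, GPNMB among these, and 263 unmatched with 0.0126% of the counts), and exon lengths for TPM came from it. Counts were tested in R 4.3.3 with edgeR 4.0.16: filterByExpr with 4 groups (13959 genes, 99.8% of counts), TMM factors, robust quasi-likelihood fit with a term per group over all 12 libraries (8 residual degrees of freedom), and a prior count of 2 for log2 fold changes. Tests were two-sided, adjusted by Benjamini-Hochberg over all genes tested, with a threshold of 0.05. The SE is the size of the unshrunken log2 fold change divided by the square root of F. The script was tested on simulated data. Totals were 5825779 to 8991051 counts, chi-square per degree of freedom between replicates 2.07 to 11.9, and the biological coefficient of variation 12%. CPM uses TMM totals. Intervals of single libraries are 95% exact Poisson intervals, which cover counting error only.

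Named genes are GPNMB, FLCN, the 5 nearest tested genes on each side of GPNMB, all members of the pathway and partner lists that were tested, of the other lists at most the 10 largest changes past the threshold in a knockdown comparison, the 5 genes of highest Pearson r with a mean of at least 50 counts, and markers of other cell types that reached a mean of 1 CPM. Replicate numbers come from the titles. Same-numbered libraries were taken as pairs where all correlations of their deviations from the group means were above 0.1. These were 0.123 to 0.458 between the long-term groups and 0.223 to 0.455 between the knockdown groups of both times. Libraries of other numbers had −0.397 to 0.231 and −0.329 to 0.134 there, so both ranges overlap between the long-term groups. Same-numbered libraries had 0.0172 to 0.111 between the short-term groups and −0.0340 to 0.0767 between the nontarget groups, and were not taken as pairs. Alternatives were RLE factors, raw library totals, DESeq2 1.42.0, no filter, a mean of at least 10 CPM, the replicate block, only the groups compared, a prior count of 0.5, 20 neighbors on each side, Spearman's correlation and leaving out each library. The partner list was shortened to 6 genes, and the others are not reported here.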

Additional observations from a re-analysis of the deposited data

Results flagged for a closer look

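Of 46 named genes, leaving out MLANA and the 5 genes picked for their likeness to GPNMB, 15 had a long-term effect that differed from the short-term effect by edgeR's interaction test (adjusted p below 0.05), where 4.98% of all genes tested had the higher and 8.43% the lower effect long-term. The values are the long-term minus the short-term log2 fold change, each with its edgeR adjusted p, and both effects share no library. Many of the 46 were named because they passed in a knockdown comparison, so nothing is read from this count against the share of all genes.

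Of the pathway, RRAGD (−1.77, adjusted p = 1.88e-04) and FNIP2 (−2.19, adjusted p = 1.10e-06) were flagged, both higher after short-term and lower after long-term knockdown. Of the MiT/TFE targets, GAA (1.55, adjusted p = 1.05e-05) and PPARGC1A (0.73, adjusted p = 0.0456) had the higher effect long-term, and NEU1 (−0.76, adjusted p = 0.00253), ATP6V1C1 (−0.54, adjusted p = 0.0313) and MAP1LC3B (−0.40, adjusted p = 0.0336) the lower. CD44 (0.88, adjusted p = 6.10e-04), a binding partner of GPNMB, had the higher effect long-term.

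Of the renal tumor markers, MME (0.69, adjusted p = 0.00715) had the higher effect long-term, and KRT7 (−2.02, adjusted p = 0.00378), L1CAM (−1.45, adjusted p = 0.00135) and PAX8 (−0.94, adjusted p = 2.16e-04) the lower. The osteoclast markers ACP5 (−1.45, adjusted p = 1.41e-04) and CALCR (−2.98, adjusted p = 5.54e-04) had the lower effect long-term. The value of MLANA was 5.69, a description with no test, since it passed the filter on low counts only through the long-term knockdown group and had 3 reads in short-term nontarget and 1 in short-term knockdown cells. CALCR had 4 reads after long-term knockdown.

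Of the neighbors, CCDC126 (1.14, adjusted p = 0.0220) was flagged. Of the genes picked for their likeness to GPNMB, whose high short-term level was used to pick them, SYT13 had a value of −2.05, KLF7 of −0.67, EPB41L3 of −0.78 and STC2 of −0.88, with no test, since these values restate the choice. With each of the 12 libraries left out in turn, PPARGC1A missed the threshold in 9 fits, MAP1LC3B in 9, ATP6V1C1 in 7 and CCDC126 in 4 (edgeR adjusted p up to 0.145, 0.0923, 0.0794 and 0.0645), and the other 11 of the 15 passed in all 12. PPARGC1A also missed it with raw library totals and with genes of at least 10 CPM alone, MAP1LC3B with no filter, and CCDC126 with DESeq2 (adjusted p = 0.0636).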

How the results depend on the processing

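The values of GPNMB, of FLCN and of the counts by list were computed under 8 alternative settings and without each library in turn. Of 297 such values, 279 kept their direction and size and 18, all counts of genes, moved by more than 1.5 times or changed in membership; none reversed. The replicate number as a block, which by the check above pairs the long-term groups and the knockdown groups of both times, but not the short-term nontarget libraries, gave GPNMB a short-term log2 fold change of 2.97 and a long-term one of 0.90. With the block, 10 in place of 6 MiT/TFE targets, 5 in place of 3 tumor markers and 2359 in place of 1441 genes in all passed after short-term knockdown, and 2879 in place of 1872 in the interaction. In the long-term groups the block changed the calls of PSAP and SLC5A2 and of no other named gene, and in the interaction it added MITF (−0.46, edgeR adjusted p = 0.0539 without and 0.0166 with the block), CDH16 (0.84, 0.0579 and 0.00745), TOMM7 (0.56, 0.0599 and 0.0131), PSAP (−0.38, 0.191 and 0.0394), ATP6V1D (−0.39, 0.135 and 0.0411) and KLHL7 (0.40, 0.120 and 0.0467) and lost no named gene. With 20 neighbors on each side, 40 in all, 2 rose and 4 fell short-term, where 5.62% and 4.71% of all genes did, and 12 rose and 4 fell long-term, where 13.7% and 15.8% did, so that 6 and 16 passed. By Spearman's correlation 3 of the 5 most alike genes were shared, ties included.

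Without 1 library, the short-term counts were 3 to 7 targets, 1 to 3 tumor markers, 1 to 2 neighbors and 874 to 1258 genes in all, and the long-term partners 1 to 3. The short-term count was 874 without nontarget replicate 1 and 906 without replicate 2. The cause of these moves was not tested. Of 2003 values of the 46 named genes with a test, 1888 stayed on their side of the threshold, 84 lost a call and 31 gained one. Raw library totals shifted the median gene by −0.05 (log2) in both knockdown comparisons, and no named gene that passed changed direction under it. The short-term calls of PAX8, ACP5, GGT1 and IGF2BP3 were lost with raw library totals. The fit of only the groups compared is the main fit for the interaction and was not repeated. With 32 to 49 reads per nontarget library, counting error limits what can be said of GPNMB there.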
